A study of Mus musculus with 4 samples.

Results

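Aminoacyl-tRNA synthetases are the enzymes that join each amino acid to its transfer RNA before the ribosome can use it. Mammalian cells make one set for the cytosol and a separate set for the mitochondrial matrix, nearly all from different nuclear genes, and several cytosolic genes are known targets of ATF4, the transcription factor of the amino acid stress response. The 36 synthetase genes described here were chosen by symbol from 19840 genes in the deposited table, and all 36 were found by Ensembl identifier. Of these, 20 code for cytosolic enzymes or their subunits and 16, with symbols ending in 2, for mitochondrial ones. Gars and Kars, for glycine and lysine, serve both compartments from one gene and are counted with the cytosolic set. All 36 passed the authors' filter on low counts and were among the 14070 genes tested.

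The cells were naive mouse embryonic stem cells in 2i/LIF, a medium with 2 kinase inhibitors and leukaemia inhibitory factor, and total RNA without ribosomal RNA was sequenced. They were infected with a pLKO.1 lentivirus whose hairpin targeted Lncenc1, a long noncoding RNA (shLincenc1 in the labels, 2 libraries), or was a control (shCtrl, 2 libraries), and both groups were selected with puromycin for 2 days. The labels name the lines E14TG2a and R1 and 2 hairpins per target, and do not say which line or hairpin a library came from, or whether the libraries of a group were separate cultures. What the p-values measure is therefore the spread of these libraries, possibly a technical one. The table does not say which group was the numerator, so the groups are named here by their Lncenc1 level. Lncenc1 had 2126 and 2121 normalized reads in the libraries of the Lncenc1-low group (L1 and L2), against 6400 and 7250 in those of the Lncenc1-high group (H1 and H2). The Lncenc1-low group is shLincenc1, and the Lncenc1-high group shCtrl, provided that the hairpin worked as designed. Every fold change from the authors' deposited table runs Lncenc1-high over Lncenc1-low, so a positive log2 value is a lower level in the Lncenc1-low group. Read counts per library, recovered from the deposited means, summed to 11120004 in L1, 10584898 in L2, 26442428 in H1 and 10977761 in H2, and normalized reads are these counts divided by the library's size factor.

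Stem cell identity was checked on 10 markers, all of them detected, with Pou5f1 at 10215 and 11533 normalized reads in the Lncenc1-low libraries and 12217 and 12443 in the Lncenc1-high libraries. The summed level of the 10 markers was 72806 and 71649 in the Lncenc1-low libraries, against 88736 and 82487 in the Lncenc1-high libraries, and the part of this shift in the results below was not tested. In 7 of the 10 markers both Lncenc1-low libraries lay below both Lncenc1-high libraries, as in 20.6% of all tested genes with counts, and 0 were called by DESeq2 in the authors' deposited table, where 1.53% of all tested genes were, with 2 at an unadjusted p under 0.05. Of 10 feeder fibroblast markers 6 were in the table, summing to 392 and 308 normalized reads in the Lncenc1-low libraries and 229 and 194 in the Lncenc1-high libraries, with the collagen gene Col3a1 at 0 in L2 and H2. Most of that sum was Fbn1, the matrix protein fibrillin, at 324 and 174 normalized reads in the Lncenc1-low libraries and 140.1 and 110.4 in the Lncenc1-high libraries (unadjusted p = 0.0149 by DESeq2 in the authors' deposited table, adjusted p = 0.32). Thy1 also had both Lncenc1-low libraries above the others, Pdgfrb overlapped, and the part of these genes in the results was not tested. As these are bulk samples, a lower level in fewer cells and a lower level in every cell cannot be told apart.

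Transcripts of 3 cytosolic synthetases, for asparagine, serine and isoleucine, were lower in the Lncenc1-low group, and no mitochondrial synthetase passed the test. At a DESeq2 adjusted p under 0.05 over all genes tested, the authors' deposited table called 3 of 20 cytosolic genes, Nars, Sars and Iars, all lower in the Lncenc1-low group, where 0.505% of all tested genes were called in that direction, 1.02% in the other and 1.53% in either. Among tested genes whose means lay within the range of the cytosolic synthetases, 0.947% were called lower in the Lncenc1-low group. The mitochondrial set of 16 held 0 called genes by DESeq2 in the authors' deposited table, beside 1.53% of all tested genes. It held 0 at an unadjusted p under 0.05 there, beside 8.82%. By limma voom it held 0 called genes and 1, Pars2, at an unadjusted p under 0.05, where voom called 0.0427% of all genes and gave 10.2% an unadjusted p under 0.05. With so few genes called over all, 0 of 16 does not set the mitochondrial genes apart. Their standard errors were also larger, from 0.20 to 0.35 against 0.18 to 0.22 for the cytosolic genes, so a like fold change was less readily called. From the authors' deposited table the median log2 fold change was 0.34 over the cytosolic genes and 0.02 over the mitochondrial ones, beside -0.01 for all genes tested; whether the sets differ was not tested. Log2 fold changes were positive for 15 cytosolic and 9 mitochondrial genes, and for 49.4% of all genes tested, and negative for 5 and 7, and for 50.6%. An unadjusted p under 0.05 was reached by 9 cytosolic genes, all lower in the Lncenc1-low group, where 3.54% of all tested genes reached it in that direction and 5.28% in the other.

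**Figure D1:**
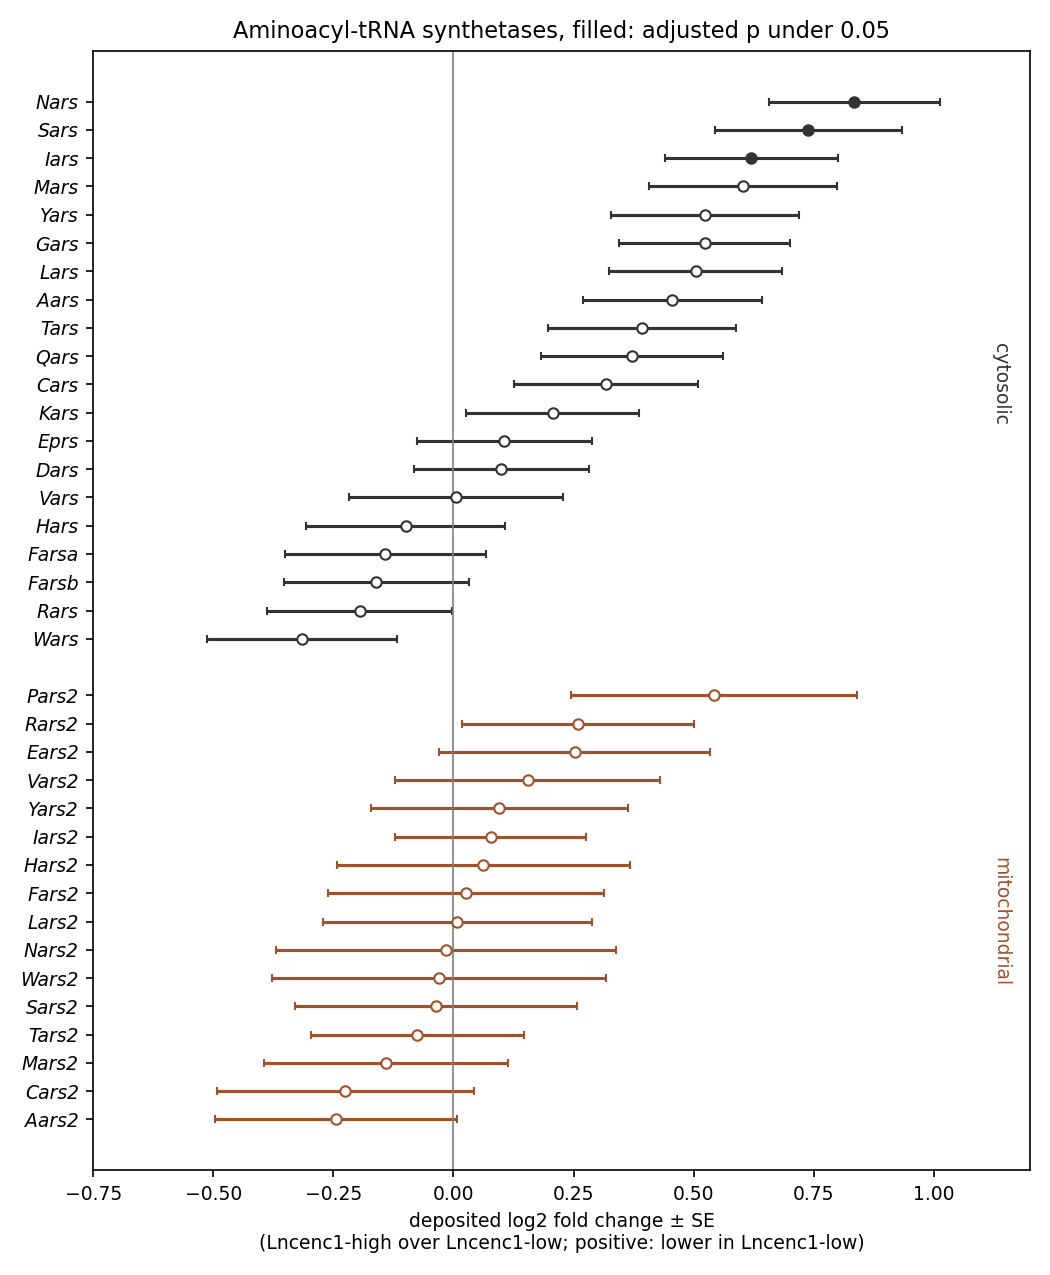
Log2 fold change with standard error from the authors' deposited table for each of the 20 cytosolic and 16 mitochondrial synthetase genes, Lncenc1-high over Lncenc1-low, with filled points for an adjusted p under 0.05. Nars, Sars and Iars are filled at 0.83, 0.74 and 0.62, and the mitochondrial genes spread from -0.24 to 0.54 around a median of 0.02.

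The promoters of 4 cytosolic genes hold the letters TGATGNAA, the core of the C/EBP-ATF response element to which ATF4 binds with a C/EBP partner. The RefSeq promoter table (GRCm38.p6) has windows from 250 bases before to 50 bases after the annotated start for 26 of the genes compared here. In 20 of 25 genes checked, the bases just after the start lay near the beginning of an annotated transcript on the same strand. In the others this was not found, so positions there rest on the RefSeq start alone. The motif, searched on both strands, was found in 4 of 12 cytosolic genes and 0 of 14 mitochondrial genes, beside 4.51% of all genes in the table. The 4 matches are shown with their surroundings, since this element is the one through which ATF4 is known to act on synthetase genes. Each is a 30-base stretch on the strand of its gene, with the matched 8 bases in capitals, in either orientation.
Gars, chr6:55037960-55037989, plus strand: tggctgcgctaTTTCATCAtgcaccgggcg
Iars, chr13:49682126-49682155, plus strand: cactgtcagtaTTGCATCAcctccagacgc
Tars, chr15:11399655-11399684, minus strand: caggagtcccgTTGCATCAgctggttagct
Yars, chr4:129189895-129189924, plus strand: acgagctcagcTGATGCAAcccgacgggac
Counted from the annotated start, with the base before it as -1, the matches lie at -30 to -23 in Gars and -15 to -8 in Tars. Those of Iars and Yars lie inside the transcript, from its base 8 to 15 and 4 to 11.

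In the authors' deposited table the log2 fold changes of the 4 genes with a match lay between 0.39 and 0.62, and their median was 0.52. The 8 cytosolic genes whose windows held no match ranged from -0.16 to 0.74, with a median of 0.16, and included Sars and Mars, at 0.74 and 0.60. No window was at hand for Nars, Lars, Cars, Hars, Rars, Vars and Wars, so the called gene Nars was not searched and these medians leave them out. Sars, a called gene, had no match in this window, and a match describes letters, not binding. The upstream part of its window, the 250 bases before the start on the strand of the gene, is shown since Sars was called and does not hold these letters, and so it has no capitals.
Sars, chr3:108445260-108445509, minus strand: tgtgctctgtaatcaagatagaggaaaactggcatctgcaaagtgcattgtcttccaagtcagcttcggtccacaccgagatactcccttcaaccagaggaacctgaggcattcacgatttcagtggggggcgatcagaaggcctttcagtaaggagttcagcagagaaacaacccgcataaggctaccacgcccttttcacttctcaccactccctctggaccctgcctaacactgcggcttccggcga

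**Figure D2:**
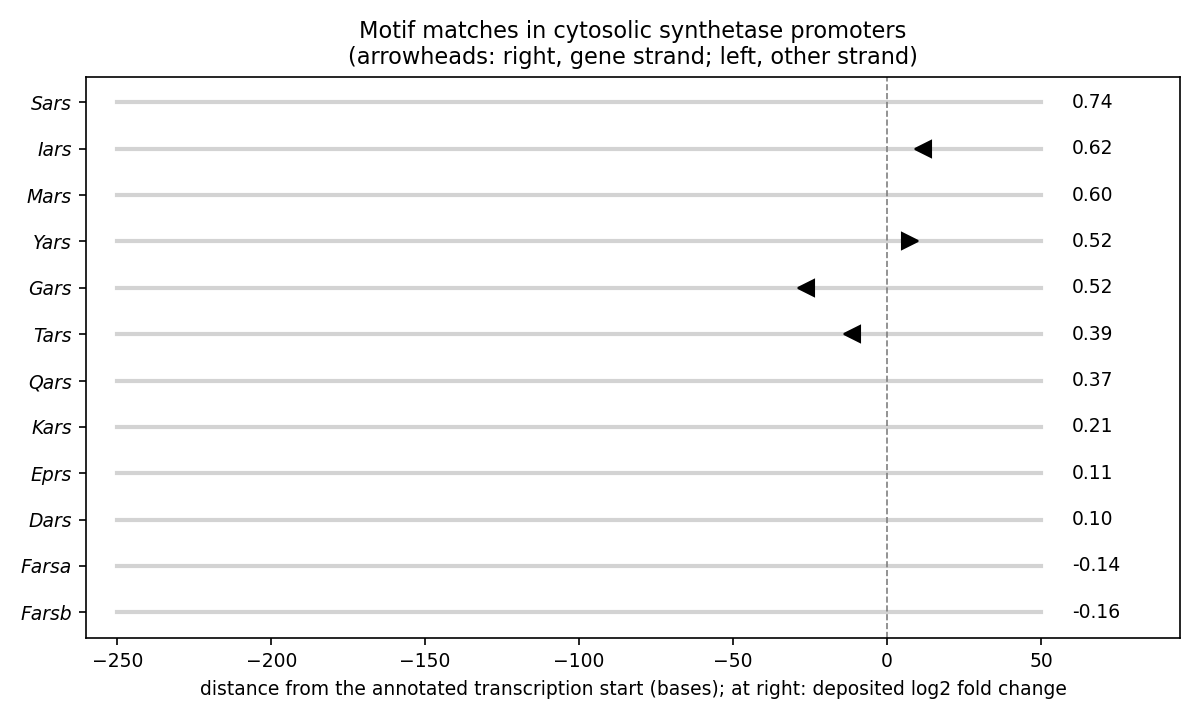
Positions of the motif, as distance in bases from the annotated start, in the windows of 12 cytosolic synthetase genes ordered by their deposited log2 fold change, which stands at the right of each line. The 4 matches lie in Gars, Iars, Tars and Yars, within 30 bases of the start, while Sars at 0.74 and Mars at 0.60 have none.

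Nars, which charges asparagine, differed most. It had 3613 and 3619 normalized reads in L1 and L2, against 6516 and 6383 in H1 and H2. The groups lay far apart, with means of 3616 ± 3.84 in the Lncenc1-low group and 6449 ± 93.9 in the Lncenc1-high group (SD, n = 2 each), so the Lncenc1-low level was 0.561 times the other. Nars (ENSMUSG00000024587) stands in the authors' deposited table at 0.83 ± 0.18 (log2 fold change and SE), with a DESeq2 adjusted p of 0.000833. It was called with any 1 of the 4 libraries left out, where 1.37% (without L1), 0.32% (without L2), 0.385% (without H1) and 0.548% (without H2) of all genes were called, against 1.45% in the same refit with all 4. It was not called by limma voom (adjusted p = 0.134).

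Sars, the seryl enzyme, which also loads the serine later turned into selenocysteine, had 4197 and 3339 normalized reads in the Lncenc1-low libraries and 6417 and 6157 in the Lncenc1-high libraries. L2 was the lowest of the 4, and the groups did not overlap. Its entry in the authors' deposited table is 0.74 ± 0.19 (log2 fold change and SE), with a DESeq2 adjusted p of 0.0181. Sars was not called without L2 (adjusted p = 0.574), without H1 (adjusted p = 0.26), without H2 (adjusted p = 0.149) or by voom (adjusted p = 0.196), and stayed called without L1. Iars, the isoleucyl enzyme and a member of the multisynthetase complex, had 3905 and 4130 normalized reads in L1 and L2, against 6329 and 6018 in H1 and H2. Both pairs of libraries were close to each other and the groups did not overlap. For Iars the authors' deposited table has 0.62 ± 0.18 (log2 fold change and SE), with a DESeq2 adjusted p of 0.0419. This call was lost on leaving out any 1 library (adjusted p from 0.217 to 0.407), with library totals in place of size factors (adjusted p = 0.0611, 1.64% of all genes called), with no filter on low counts (adjusted p = 0.0591, 0.897% called) and by voom (adjusted p = 0.214).

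A further 6 cytosolic genes had an unadjusted p under 0.05 and did not pass over all genes. Mars, which charges methionine for initiation and elongation, had 2679 and 2310 normalized reads in the Lncenc1-low libraries and 4034 and 3539 in the Lncenc1-high libraries. Gars had 4940 and 5061 in the Lncenc1-low libraries and 7448 and 6921 in the Lncenc1-high libraries. Lars, the leucyl enzyme, which in mammalian cells also senses leucine for mTORC1, had 3867 and 3972 in the Lncenc1-low libraries and 5468 and 5650 in the Lncenc1-high libraries. In each of these the Lncenc1-low libraries were the lower ones, and the gap between groups exceeded the gap within either. Yars, the tyrosyl enzyme, had 2873 and 2522 normalized reads in the Lncenc1-low libraries and 4173 and 3578 in the Lncenc1-high libraries. Aars, the alanyl enzyme, had 6588 and 7216 normalized reads in the Lncenc1-low libraries and 10204 and 8728 in the Lncenc1-high libraries. Tars, the threonyl enzyme, had 5500 and 4318 in the Lncenc1-low libraries and 6349 and 6543 in the Lncenc1-high libraries. The groups did not overlap in these either, although in Tars the distance between L1 and L2 was larger than that between L1 and the nearer Lncenc1-high library. The log2 fold changes of the 6 ran from 0.39 ± 0.20 (SE) for Tars to 0.60 ± 0.20 (SE) for Mars in the authors' deposited table, with DESeq2 adjusted p from 0.0999 for Mars to 0.546 for Tars.

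**Figure D3:**
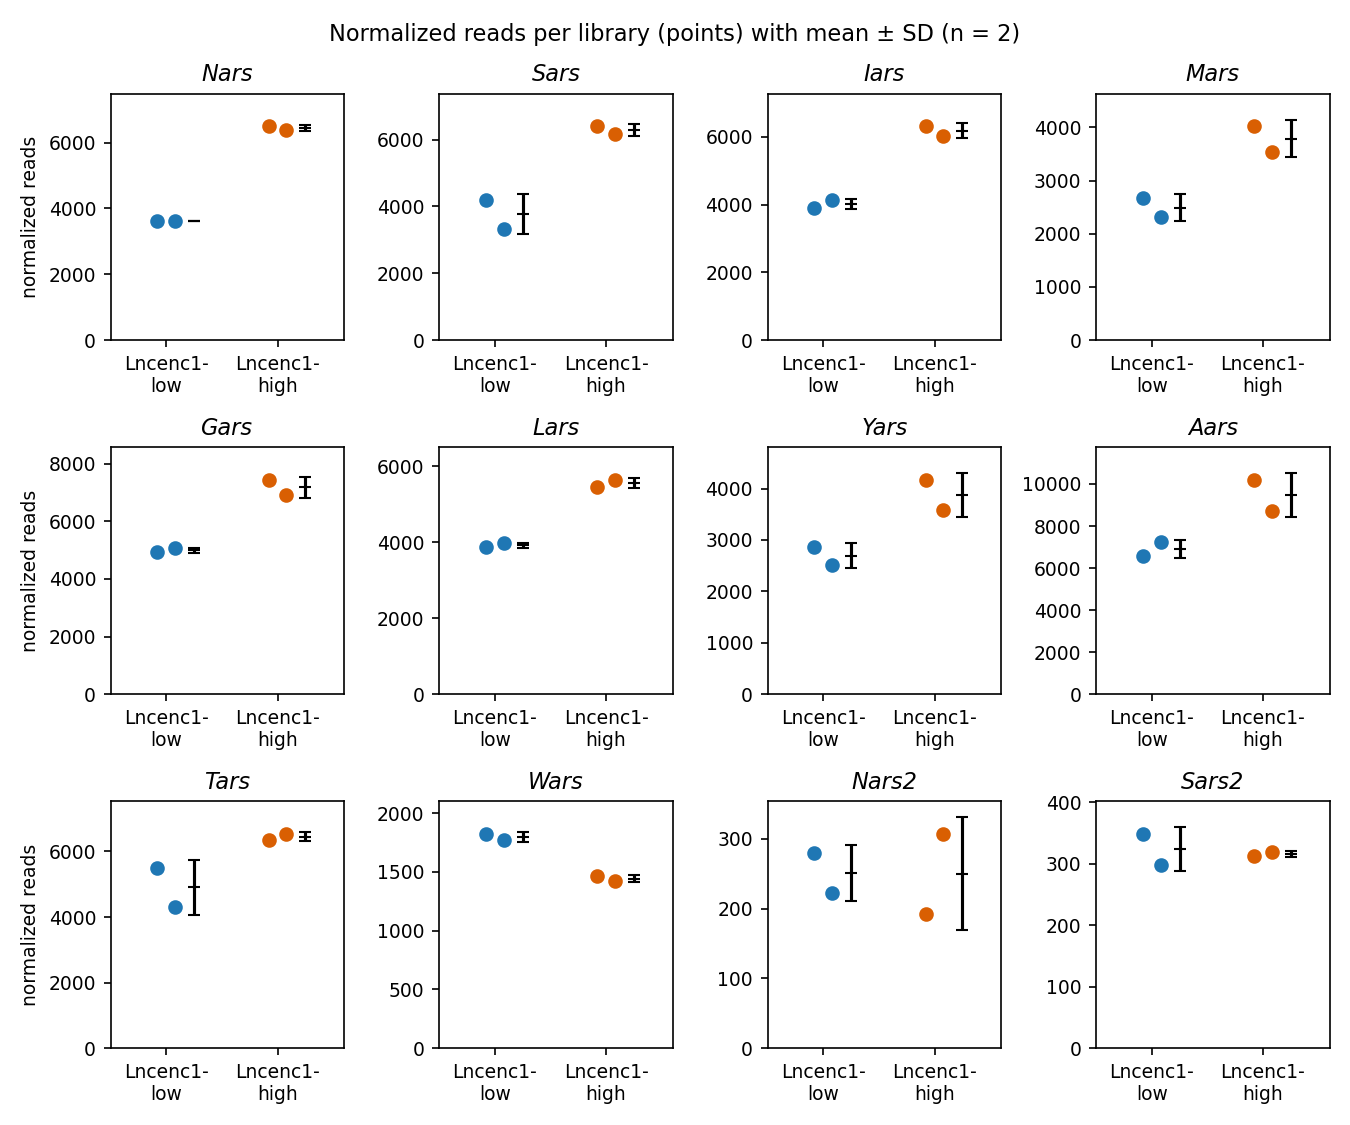
Normalized reads in each library (points) with the mean and SD of the 2 libraries per group, for 10 cytosolic and 2 mitochondrial synthetase genes, with the Lncenc1-low group on the left of each panel and the axis from 0. Nars, at 3613 and 3619 against 6516 and 6383, has the widest gap, Wars runs the other way, and Nars2 and Sars2 overlap.

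Among the other cytosolic genes some were also lower in the Lncenc1-low group, with smaller log2 fold changes, and some overlapped. Qars, the glutaminyl enzyme, had 2685 and 2697 normalized reads in the Lncenc1-low libraries and 3253 and 3712 in the Lncenc1-high libraries. It was picked after its values were seen, since by DESeq2 in the authors' deposited table it just missed an unadjusted p of 0.05 (0.0507). By voom its unadjusted p was 0.0321 and its adjusted p 0.444. Cars, for cysteine, Kars and Dars, for aspartate, also had both Lncenc1-low libraries below both Lncenc1-high ones, with log2 fold changes of 0.32 ± 0.19, 0.21 ± 0.18 and 0.10 ± 0.18 (SE) in the authors' deposited table. Kars had 4760 and 4465 normalized reads in the Lncenc1-low libraries and 5310 and 5337 in the Lncenc1-high libraries. Eprs, which joins the glutamyl and prolyl enzymes in one chain, and Vars, for valine, overlapped between groups at 0.11 ± 0.18 and 0.00 ± 0.22 (SE) in the same table.

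In 5 cytosolic genes both Lncenc1-low libraries were the higher ones, and 0 of these had an unadjusted p under 0.05 in the authors' deposited table or by voom. Wars, the tryptophanyl enzyme, which interferon also induces, had 1826 and 1769 normalized reads in L1 and L2, against 1467 and 1421 in H1 and H2. Its libraries were close within each group and apart between them, and Wars stands at -0.32 ± 0.20 (log2 fold change and SE) in the authors' deposited table, with a DESeq2 adjusted p of 0.751. Rars, the arginyl enzyme, had 3462 and 2971 normalized reads in the Lncenc1-low libraries and 2768 and 2850 in the Lncenc1-high libraries. Farsa and Farsb code for the alpha and beta subunits of one phenylalanyl enzyme. Farsa had 1272 and 1426 normalized reads in the Lncenc1-low libraries and 1240 and 1204 in the Lncenc1-high libraries. Farsb had 3693 and 3125 in the Lncenc1-low libraries and 3044 and 3057 in the Lncenc1-high libraries. Both subunits thus lay on the same side, at -0.14 ± 0.21 and -0.16 ± 0.19 (SE) in the authors' deposited table. Hars, for histidine, was the fifth, at -0.10 ± 0.21 (SE) in that table.

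Of the 20 cytosolic genes 13 had both Lncenc1-low libraries below both Lncenc1-high libraries, 5 the reverse and 2 overlapped. Over all tested genes with counts, 20.6% lay in the first way and 20.7% in the reverse way, and among those with means in the range of the cytosolic synthetases 23.8% lay in the first way. Of the 16 mitochondrial genes 4 lay in the first way, 2 in the reverse way and 10 overlapped. Taken over the whole set, the 20 cytosolic genes summed to 79726 and 73242 normalized reads in the Lncenc1-low libraries, against 97493 and 95290 in the Lncenc1-high libraries. The 16 mitochondrial genes summed to 8530 and 9378 in the Lncenc1-low libraries and 8785 and 9507 in the Lncenc1-high libraries, and there the groups overlapped. As a share of recovered reads, without size factors, the cytosolic genes took 0.582% of L1 and 0.56% of L2, against 0.718% of H1 and 0.692% of H2.

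Called genes stood on both sides of each structural division, all lower in the Lncenc1-low group, as were 0.505% of all tested genes. The multisynthetase complex, a cytosolic particle of synthetases and scaffold proteins, holds 8 of the cytosolic members, and its genes had a median log2 fold change of 0.29 with 1 called, while the 12 outside it had a median of 0.36 with 2 called, by the authors' deposited table. The catalytic domains of synthetases fall into 2 unrelated folds, class I and class II. The 9 cytosolic genes of class I had a median of 0.37 with 1 called and the 10 of class II a median of 0.30 with 2 called in the same table, Eprs being both. The mitochondrial medians were 0.08 over 9 genes of class I and -0.02 over 7 of class II, with 0 called and 0 at an unadjusted p under 0.05 in the authors' deposited table. A further division was by 12 genes listed as ATF4 targets from knowledge of mouse fibroblasts, a list drawn up with earlier results of these data known and so no independent support. These 12 (Aars, Cars, Eprs, Gars, Iars, Lars, Mars, Nars, Sars, Tars, Wars and Yars) had a median of 0.51, held the 3 called genes and all 9 with an unadjusted p under 0.05 (0.505% and 3.54% of all tested genes in that direction), and summed to 53597 and 50002 normalized reads in the Lncenc1-low libraries against 72125 and 69592 in the Lncenc1-high libraries. The other 8 had a median of -0.05 and summed to 26129 and 23240 in the Lncenc1-low libraries and 25368 and 25698 in the Lncenc1-high libraries. Wars was the one listed target with a negative log2 fold change.

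The mitochondrial genes, which serve the translation of the few proteins encoded in mitochondrial DNA, varied with no common direction. Pars2, the prolyl enzyme, had 232 and 252 normalized reads in the Lncenc1-low libraries and 353 and 351 in the Lncenc1-high libraries, with no overlap. It stands at 0.54 ± 0.30 (log2 fold change and SE) in the authors' deposited table, the largest of the set, with a DESeq2 adjusted p of 0.649. Rars2, Ears2 and Vars2, the arginyl, glutamyl and valyl enzymes, were next, at 0.26, 0.25 and 0.15 in that table, also with both Lncenc1-low libraries below both Lncenc1-high libraries. Rars2 had 559 and 676 normalized reads in the Lncenc1-low libraries and 758 and 720 in the Lncenc1-high libraries. Ears2 had 311 and 384 in the Lncenc1-low libraries and 426 and 401 in the Lncenc1-high libraries, and Vars2 371 and 353 in the Lncenc1-low libraries and 380 and 428 in the Lncenc1-high libraries. In the authors' deposited table the lowest log2 fold changes were those of Aars2 (-0.24), Cars2 (-0.23), Mars2 (-0.14) and Tars2 (-0.08). Aars2 had 627 and 797 normalized reads in the Lncenc1-low libraries and 559 and 646 in the Lncenc1-high libraries, where the groups overlapped. Cars2 had 514 and 461 in the Lncenc1-low libraries and 379 and 457 in the Lncenc1-high libraries, and Mars2 had 535 in both Lncenc1-low libraries and 513 and 455 in the Lncenc1-high libraries. Tars2 overlapped, at 1221 and 1552 in the Lncenc1-low libraries and 1241 and 1394 in the Lncenc1-high libraries, while Cars2 and Mars2 were the 2 genes of the set with both Lncenc1-low libraries above the others. The remaining 8, Fars2, Hars2, Iars2, Lars2, Nars2, Sars2, Wars2 and Yars2, overlapped between groups and lay between -0.04 and 0.10 in log2 fold change in the authors' deposited table. Among them were Nars2, at 280 and 222 normalized reads in the Lncenc1-low libraries and 193 and 307 in the Lncenc1-high libraries, and Sars2, at 349 and 298 in the Lncenc1-low libraries and 312 and 319 in the Lncenc1-high libraries. Iars2 had 1956 and 1933 in the Lncenc1-low libraries and 1901 and 2204 in the Lncenc1-high libraries, and Wars2 199.6 and 192 in the Lncenc1-low libraries and 177 and 207 in the Lncenc1-high libraries. Lars2, at 346 and 402 in the Lncenc1-low libraries and 357 and 396 in the Lncenc1-high libraries, and Yars2, at 431 and 529 in the Lncenc1-low libraries and 561 and 463 in the Lncenc1-high libraries, are partners of genes described above.

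Setting each mitochondrial enzyme against the cytosolic one for the same amino acid gives a ratio of reads within a library that no size factor touches. In 9 of 17 such pairs the ratio was lower in both Lncenc1-low libraries than in both Lncenc1-high libraries, in 3 it was higher and in 5 it overlapped. Single genes lay in the first way in 20.6% of all tested genes with counts, and no share over other gene pairs was computed. In each of the 9 pairs the cytosolic gene by itself already lay in that way, so the count repeats the earlier one. Eprs and Fars2 each stand in 2 pairs. Nars had 12.9 and 16.3 times the reads of Nars2 in L1 and L2, against 33.8 and 20.8 times in H1 and H2. Sars had 12.0 and 11.2 times the reads of Sars2 in the Lncenc1-low libraries and 20.6 and 19.3 times in the Lncenc1-high libraries. Mars had 5.01 and 4.32 times the reads of Mars2 in the Lncenc1-low libraries and 7.86 and 7.77 times in the Lncenc1-high libraries. Here Nars2 and Sars2 overlapped between groups, and both Lncenc1-low libraries of Mars2 lay above the others. The pairs of Aars, Cars, Iars, Lars, Tars and Yars also had lower ratios in the Lncenc1-low libraries. Iars exceeded Iars2 2.00 and 2.14 times in the Lncenc1-low libraries and 3.33 and 2.73 times in the Lncenc1-high libraries. The reverse held for Rars with Rars2, Wars with Wars2 and Eprs with Pars2, the last at 43.9 and 34.9 times in the Lncenc1-low libraries and 27.95 and 29.97 times in the Lncenc1-high libraries. With 2 libraries against 2, the smallest two-sided p of an exact permutation test is 0.333, and the ratios are given as a description, with no test run on them. Summed over the sets, cytosolic reads were 9.35 and 7.81 times mitochondrial reads in L1 and L2, and 11.1 and 10.02 times in H1 and H2.

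**Figure D4:**
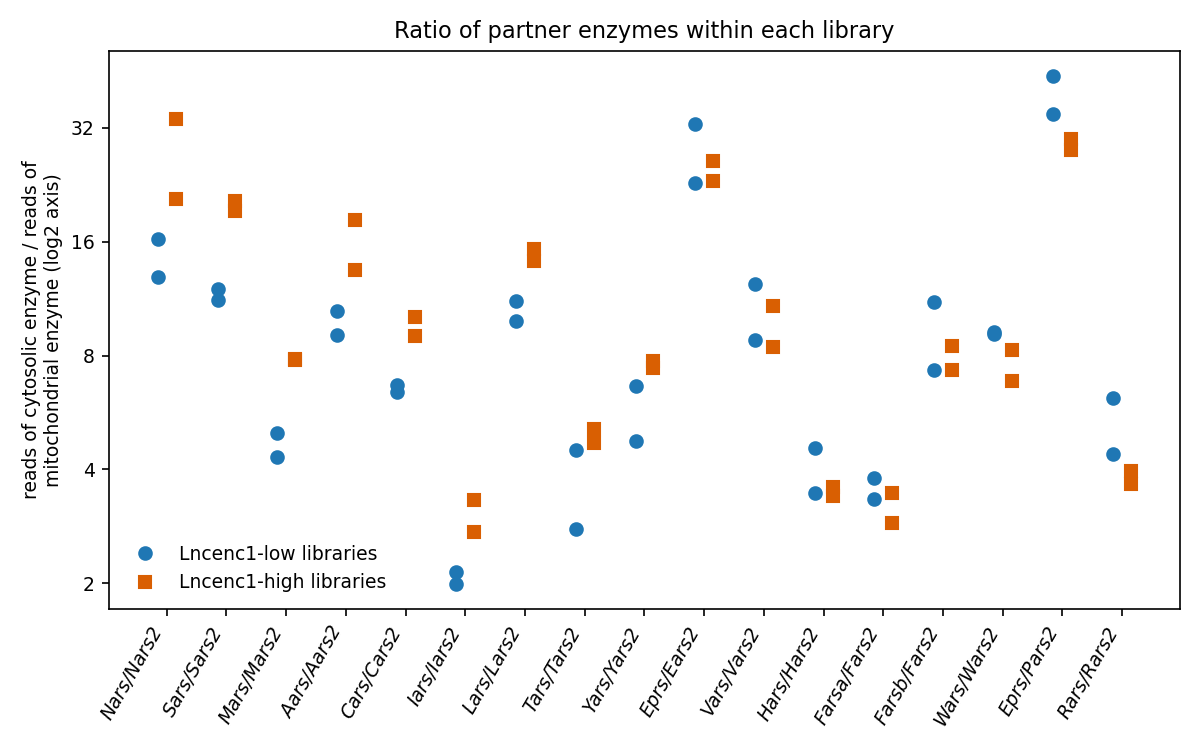
Reads of the cytosolic enzyme over reads of its mitochondrial partner within each library, on a log2 axis, for 17 pairs ordered by the difference of their deposited log2 fold changes, with Lncenc1-low libraries left of Lncenc1-high libraries in each pair. The 9 pairs at the left have both Lncenc1-low libraries below both Lncenc1-high libraries, as in Sars/Sars2 at 12.0 and 11.2 against 20.6 and 19.3.

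Per length each cytosolic gene stood above each mitochondrial one. On the scale of mean normalized reads over all 4 libraries per kilobase of annotated exons, Gars was highest at 1953 and Farsa lowest of the cytosolic set at 283, while Rars2 led the mitochondrial set at 245 and Wars2 closed it at 32.6. How reads in stretches shared between genes were counted is not known, since no source used here gives the settings of the counting. Aars shares 14.3% of its exon length with Exosc6 on its own strand, Iars2 shares 24.2% with genes on the opposite strand, and Hars and Hars2 overlap on opposite strands over 7.97% of the exons of Hars. Mars shares 1.99% with Ddit3, and the exons of Nars, Sars and Iars overlap no other annotated gene.

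Other genes of tRNA charging held no called member. Of 19 tested, 0 were called by DESeq2 in the authors' deposited table, where 1.53% of all tested genes were, and 0 by voom, where 0.0427% were. With so few genes called over all, 0 of 19 does not set this list apart. The median log2 fold change was -0.11, and 1 gene had an unadjusted p under 0.05 in the deposited table, beside 8.82% of all genes tested. That gene, named for this count after its values were seen, was Trnt1, which adds the CCA end to tRNAs, with 1675 and 1770 normalized reads in the Lncenc1-low libraries and 1248 and 1286 in the Lncenc1-high libraries. For the scaffold genes of the multisynthetase complex, Aimp1, Aimp2 and Eef1e1, also chosen after their values were seen, the authors' deposited table has log2 fold changes of -0.07, -0.23 and 0.21.

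Genes of the ATF4 pathway, on a list also drawn up with earlier results known, had positive log2 fold changes in 22 of 26 cases, beside 49.4% of all genes tested. In the authors' deposited table the 4 negative ones were Ddit3 (-0.45), Eif2ak3 (-0.10), Sesn2 (-0.04) and Gcn1l1 (-0.0003). These 4 were named after their values were seen, and in each the groups overlapped. Of the 26 tested, DESeq2 in the authors' deposited table called 7, all lower in the Lncenc1-low group, beside 0.505% of all tested genes called in that direction, with a median log2 fold change of 0.62. Chac1, which degrades glutathione, had 29.6 and 22.2 normalized reads in the Lncenc1-low libraries and 156 and 189 in the Lncenc1-high libraries. Psat1, of serine synthesis, had 5151 and 3410 in the Lncenc1-low libraries and 7857 and 7328 in the Lncenc1-high libraries. Shmt2 and Mthfd2, of mitochondrial one-carbon metabolism, had 2021 and 1739, and 632 and 564, in the Lncenc1-low libraries, against 3751 and 3050, and 1419 and 1286, in the Lncenc1-high libraries. In each of these the groups did not overlap. Nupr1, a stress-induced nuclear protein, had 161 and 59.3 in the Lncenc1-low libraries and 449 and 526 in the Lncenc1-high libraries. Pycr1, of proline synthesis, had 251 and 203 in the Lncenc1-low libraries and 545 and 442 in the Lncenc1-high libraries. Stc2, a secreted glycoprotein of the stress response, had 250.2 and 122 in the Lncenc1-low libraries and 531 and 480.5 in the Lncenc1-high libraries. The groups did not overlap in these 3 either, with L2 the lowest library of each. Atf4 itself had 2630 and 3441 normalized reads in the Lncenc1-low libraries and 3484 and 4777 in the Lncenc1-high libraries, and with 0.44 ± 0.23 (log2 fold change and SE) in the authors' deposited table it did not pass (DESeq2 adjusted p = 0.562). Of the 26 genes 2 were called without L2, 3 without H1, 4 without H2 and 0 by voom, where 0.32%, 0.385%, 0.548% and 0.0427% of all genes were called.

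**Figure D5:**
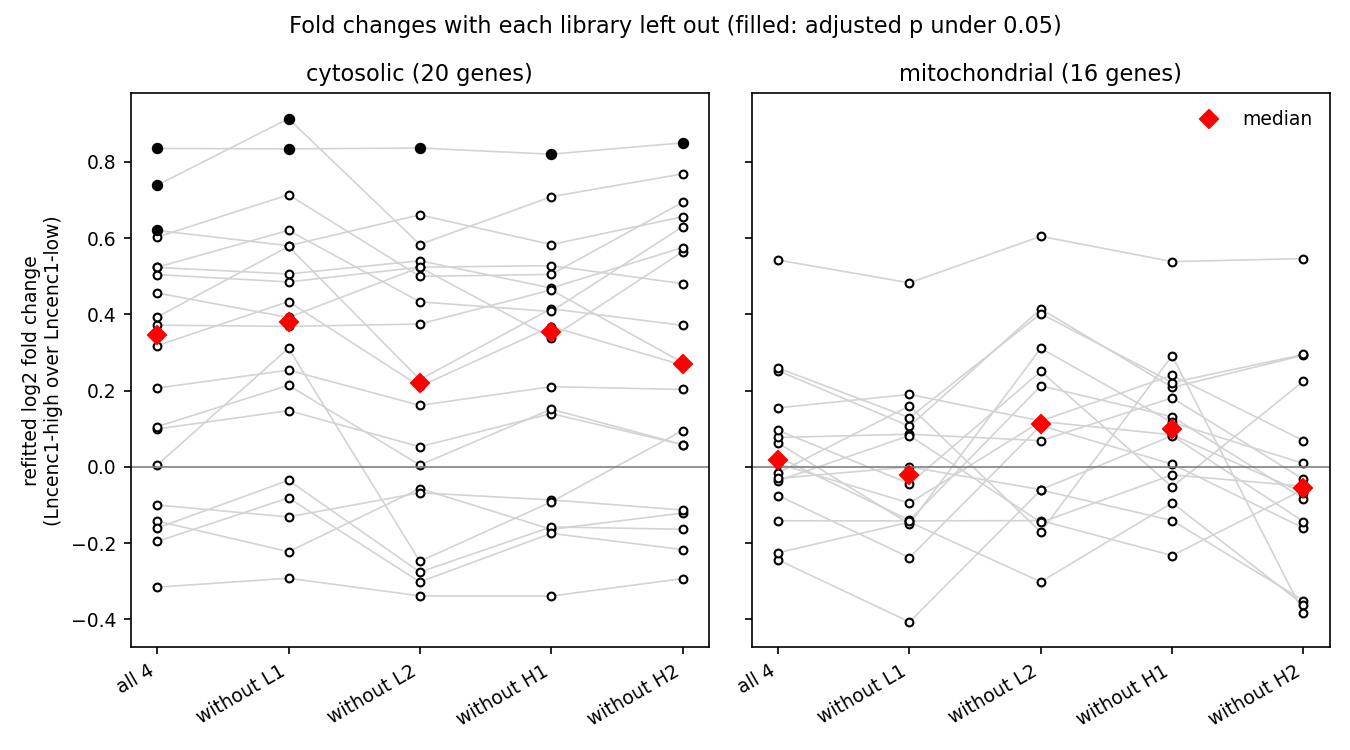
Refitted log2 fold changes, Lncenc1-high over Lncenc1-low, of 20 cytosolic and 16 mitochondrial synthetase genes with all 4 libraries and with each library left out, with filled points for an adjusted p under 0.05 and red diamonds for the median of the set. The cytosolic median stays between 0.22 and 0.38 and the mitochondrial median between -0.06 and 0.11, while the filled points drop to Nars alone without L2, H1 or H2.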

How the data were processed

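Total RNA of 4 libraries was sequenced strand-specifically after depletion of ribosomal RNA, per the labels' protocols. TopHat2, HTSeq, DESeq2 1.8.2 and the build mm9 stand in the submitters' processing notes, without order or settings. The deposited mean normalized read count, a signal over all libraries, the log2 fold change with its standard error, the Wald statistic (a score) and the p-value with its adjusted p-value are the authors', per the file headers.

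Counts per library were recovered for 19816 of 19840 genes, the 36 members included, as the whole numbers whose sum over size factors gives a deposited mean to 15 digits and whose refitted fold change matches the deposited one. Of the members 15 had 1 solution for the mean; the others had up to 1467, of which the one that gave the deposited fold change was taken, so their values per library rest on that choice. The counts served descriptions, a refit by a negative binomial Wald test with the dispersions that the standard errors imply, and limma 3.58.1 voom. Both fits ran over 14041 genes and were tried on simulated data with 2 libraries per group. There the refit called 8% and voom 6% of differences set at 1.5-fold, and 34% and 30% of those at 2-fold. Most differences of these sizes were thus missed by either fit in the simulation. The changed genes there were drawn at random from all tested genes, and the refit was given the dispersions used to simulate. These shares therefore need not hold for the synthetases. Of 14023 genes tested there, 3 unchanged ones were called by the refit and 30 by voom. The 24 genes not recovered hold 12.7% of the summed means, so totals and shares of reads leave them out. Groups are 2 libraries each, and the edgeR test foreseen for counts per library was not run, as the deposited table holds means.

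Members and lists were chosen with earlier results of these data known. Genes with values were those at p under 0.05, the 4 highest and 4 lowest fold changes per set at a mean of at least 50, Gars, Kars, Farsa, Farsb, partners of those genes and the extremes per kilobase. Qars was added outside these rules. Companion genes were named if called, plus those marked in the report. Further lists were ATF4 pathway genes, tRNA charging genes and markers of stem cells and fibroblasts. The annotation (GENCODE vM21, GRCm38) gave names, lengths and overlaps, and its exons may differ from those the authors counted on. Protein features were not analysed here. The promoter of 1 member is not reported here.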

Additional observations from a re-analysis of the deposited data

How the results depend on the processing

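The cytosolic median kept its sign in each fit, and the calls were fewer in most. Voom called 0 of the 20 cytosolic genes, with 10 at an unadjusted p under 0.05 beside 10.2% of all genes, and 0 of the ATF4 pathway genes. Leaving out 1 library gave 1 to 2 cytosolic calls, always with Nars, and 2 to 7 calls in the ATF4 pathway, the lowest without L2. Library totals, or no filter on low counts, gave 2 cytosolic calls, Nars and Sars, in each case. Mitochondrial genes and tRNA charging genes had 0 calls in each fit on all 4 libraries. The share of all genes called in those fits ran from 0.0427% by voom to 1.64% by library totals. The cytosolic median log2 fold change ranged from 0.22, without L2, to 0.38, without L1, and the mitochondrial median from -0.055, without H2, to 0.11, without L2. By library totals the medians were 0.31 and -0.02. Fits without 1 library keep the dispersions of all 4 and take the lone library to vary like the others, so that fewer libraries alone can lose a call. The share of all genes called was also lower in each of these fits than in the same refit on all 4, as given above for Nars. No paired analysis was possible because the deposited columns carry no replicate number and the recovered libraries cannot be tied to one. Standard errors of the log2 fold change in the authors' deposited table ran from 0.20 to 0.35 for the mitochondrial genes, whose means begin at 194 normalized reads, and from 0.18 to 0.22 for the cytosolic ones.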
